A study of Homo sapiens with 4 samples.

Results

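The SOX, GATA and T-box genes encode 3 families of transcription factors, and their loci were examined for peaks of ATOH8 and TCF3 in DU145 cells, a human prostate cancer line long held in culture. The 42 genes were chosen by symbol from the RefSeq annotation of protein-coding genes on chromosomes 1 to 22 and X, and comprise 19 SOX genes, 6 GATA genes and 17 T-box genes out of 19974. Family-wide counts of genes with TCF3 and with ATOH8 peaks in these same lists were known when the families were chosen, so those counts are given as a description and were not tested. A peak was assigned to a gene when its midpoint lay inside the gene or within 5 kb of an end.

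Chromatin immunoprecipitation and sequencing (ChIP-seq) was carried out in DU145 cells for 2 basic helix-loop-helix (bHLH) proteins, Flag-tagged ATOH8 and Myc-tagged TCF3. There were 4 libraries, 1 immunoprecipitated and 1 input library for either factor, and no replicate. The sources used here do not say how the tagged proteins were introduced into the cells, and the input libraries were not analysed here. On the chromosomes used, the ATOH8 list held 4951 peaks and the TCF3 list 11330. The score of a peak is the authors' own value, with a median of 84 in the ATOH8 list and 61 in the TCF3 list, and was compared only within a list. Read depth was unknown, RNA was not measured in these libraries, and no value below has an error estimate from replicates.

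SOX proteins carry an HMG box, a domain that binds the minor groove of DNA and bends it. GATA proteins carry zinc fingers that recognise the sequence for which they are named, and T-box proteins share the DNA-binding domain first described in brachyury. The 3 families direct cell fate in the embryo, and in adult tissue many members are expressed in a few cell types only. TCF3 is an E protein, a broadly expressed bHLH factor that binds short palindromic sites called E-boxes as a dimer, while ATOH8 is a member of the atonal-related bHLH group.

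TCF3 peaks lay at 33 of the 42 genes (78.6%), where 32.9% of all protein-coding genes had a TCF3 peak. ATOH8 peaks lay at 12 of 42 (28.6%), close to the 25.1% of all protein-coding genes. Peaks of both factors were listed at 10 of the 42 genes (23.8%), against 11.8% of all genes. Of the 33 genes with a TCF3 peak, 30.3% also had an ATOH8 peak, against 36.0% of all protein-coding genes with a TCF3 peak. A TCF3 peak without an ATOH8 peak was listed at 23 genes (54.8%), against 21.0%. GATA2 and MGA had ATOH8 peaks only (13.3% of all genes did), and 7 genes had no peak of either factor (53.9% of all genes). The median length of the 42 genes was 11.6 kb, against 24.2 kb for all protein-coding genes, but SOX5 and SOX6 spanned 1033 and 772 kb.

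**Figure D1:**
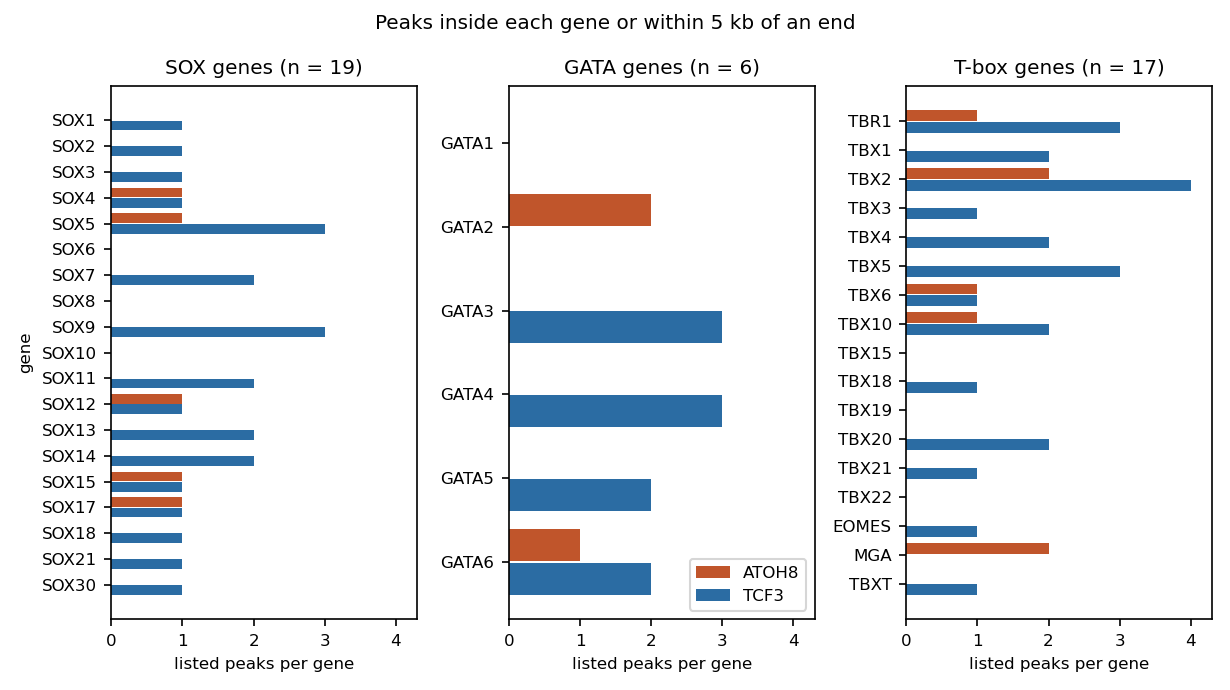
Number of listed ATOH8 and TCF3 peaks (horizontal axis) at each SOX, GATA and T-box gene (vertical axis), counting peaks with a midpoint inside the gene or within 5 kb of an end. TCF3 peaks appear at 33 genes and reach 4 at TBX2, while ATOH8 peaks appear at 12 genes and do not exceed 2.

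Each family was counted apart. TCF3 peaks lay at 16 of 19 SOX genes (84.2%), 4 of 6 GATA genes (66.7%) and 13 of 17 T-box genes (76.5%). ATOH8 peaks lay at 5 SOX genes (26.3%), 2 GATA genes (33.3%) and 5 T-box genes (29.4%). With flanks of 1 kb the ATOH8 count of the T-box family was 2 of 17 (11.8%), where 22.2% of all protein-coding genes had a peak. Genes with 2 or more TCF3 peaks numbered 17 of 42 (40.5%), against 8.01% of all protein-coding genes, and all 4 GATA genes with a TCF3 peak were among them. For ATOH8 the number was 3 (GATA2, MGA and TBX2), against 3.46%. Several TCF3 peaks per gene were not particular to these families. Among the homeobox and forkhead genes compared below, 43.3 and 30.8% had 2 or more TCF3 peaks. In density, the 58 TCF3 peaks at the 42 genes came to 1.84 per 100 kb of gene and flanks, and all TCF3 peaks at protein-coding genes to 0.528. The TCF3 density was 3.56 for homeobox and 1.82 for forkhead genes. The 15 ATOH8 peaks came to 0.475 per 100 kb against 0.316. By family the TCF3 density was 1.11 for SOX, 4.17 for GATA and 3.18 for T-box genes. The ATOH8 density was 0.231 for SOX, below that of all genes, 1.25 for GATA and 0.928 for T-box genes. The SOX span includes SOX5 and SOX6, of 1033 and 772 kb.

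The families differed in how many genes kept a TCF3 peak in a shorter list. Shortening a list can only lower a count, so the share of all protein-coding genes is given beside it. When the TCF3 list was reduced to its highest-scoring 4951 peaks, the size of the ATOH8 list, TCF3 peaks lay at 22 of the 42 genes (52.4%), with 16.7% of all protein-coding genes called. With the whole list the shares were 78.6 and 32.9%. In the reduced list 13 SOX genes (68.4%), 4 GATA genes (66.7%) and 5 of 17 T-box genes (29.4%) had a TCF3 peak, against the same 16.7%.

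**Figure D2:**
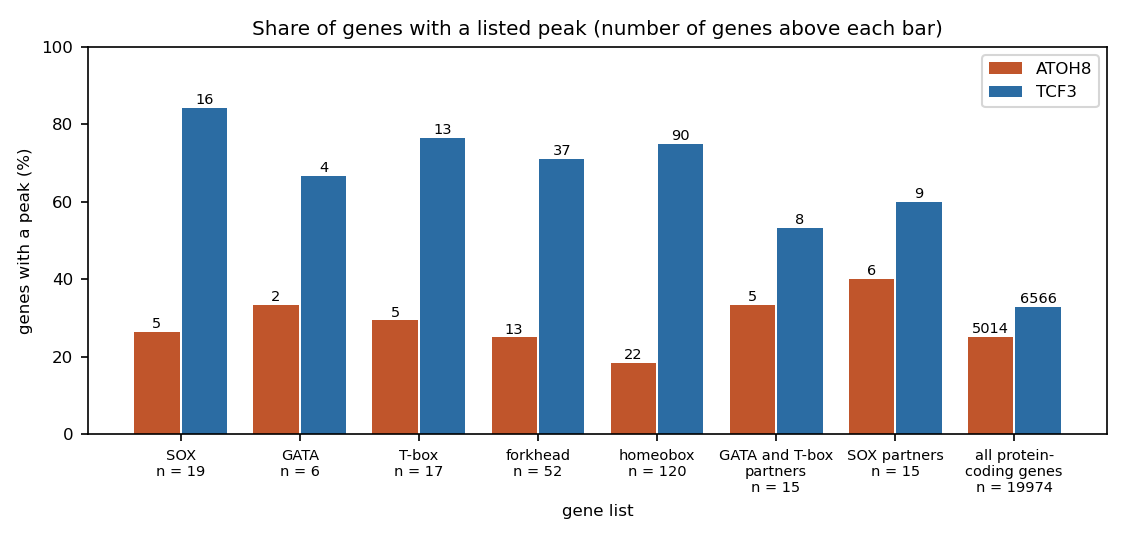
Share of genes with a listed ATOH8 or TCF3 peak (vertical axis, %) in each gene list (horizontal axis), with the number of genes above each bar. TCF3 shares run from 66.7 to 84.2% in the SOX, GATA and T-box families against 32.9% of all protein-coding genes, and ATOH8 shares run from 26.3 to 33.3% against 25.1%.

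SOX1, SOX2, SOX3, SOX14 and SOX21 each had a TCF3 peak and no ATOH8 peak. SOX2, a factor of pluripotent and neural stem cells, had a TCF3 peak with score 110 (chr3:181711627-181713303, hg38) that ran across its annotated start. SOX1, its neural relative, had a peak with score 120 (chr13:112065776-112069345) that was 3569 bp wide and also crossed the start. Both score above more than 80% of the TCF3 list (82.2 and 85.8%). SOX3, the third of this group, had a peak with score 36, near the bottom of the list. SOX14 and SOX21 encode related factors that act as repressors in neural cells. SOX14 had TCF3 peaks with scores 120 (chr3:137763573-137765725) and 70, and SOX21 had a peak with score 99 (chr13:94711542-94712329).

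SOX4, SOX11 and SOX12, which share activity in neuronal and mesenchymal precursors, all had TCF3 peaks. The highest listed TCF3 score among all 42 genes, 253, was at SOX11, in a peak 3781 bp wide (chr2:5690331-5694112) across the lower-coordinate end of the gene. That score was above 98.9% of the TCF3 list, and no ATOH8 peak was listed within 2172880 bp of SOX11. Scores in the TCF3 list jump from 887 to 280 beside a line without a peak, so any peaks in that range were not seen. At SOX4, which is active in many epithelial tumours, a TCF3 peak with score 120 (chr6:21594314-21595768) shared 1313 bp with an ATOH8 peak of score 54 (chr6:21594455-21595798). At SOX12 a TCF3 peak with score 82 (chr20:325503-326751) lay wholly within an ATOH8 peak of score 63 (chr20:325095-326775). The ATOH8 scores at both genes were in the lower part of that list, above 4.99 and 22.8% of its peaks.

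SOX7, SOX17 and SOX18, which act in blood and lymph vessels and in endoderm, each had at least 1 TCF3 peak. SOX7 had TCF3 peaks with scores 99 (chr8:10729823-10731560) and 89, and SOX18, a lymphatic regulator, had a peak with score 79 (chr20:64048236-64049857). At SOX17, an endoderm factor, a TCF3 peak with score 79 and width 2220 bp (chr8:54457631-54459851) contained an ATOH8 peak of score 86 (chr8:54457773-54458710). The ATOH8 score was above 50.7% of its list and the TCF3 score above 64.3% of its own.

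The remaining SOX genes were split. SOX9, which directs cartilage and is expressed in prostate epithelium, had TCF3 peaks with scores 89 (chr17:72117711-72118493), 51 and 51, while its relatives SOX8 and SOX10 had no peak of either factor. SOX5 and SOX13, partners of SOX9 in cartilage or regulators of T cells, had TCF3 peaks up to 110 (chr12:24561914-24563465) and 89 (chr1:204073208-204073714), and SOX6, from the same group, had none. The SOX5 peak shared 525 bp with an ATOH8 peak of score 51 (chr12:24561804-24562439), the lowest score in the ATOH8 list. SOX15 had a TCF3 peak with score 61 and an ATOH8 peak with score 91 (chr17:7589910-7590918). Both SOX15 peaks also fell under the rule for its neighbours FXR2 and MPDU1, so they cannot be assigned to SOX15 alone. SOX30, a factor of male germ cells, had a TCF3 peak with score 44, which lay inside C5orf52.

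Of the GATA genes, GATA6 had peaks of both factors, GATA2 of ATOH8 only, and GATA3, GATA4 and GATA5 of TCF3 only. GATA3, a regulator of T cells and of luminal epithelium, had TCF3 peaks with scores 131 (chr10:8054291-8056349), 79 and 41 and no ATOH8 peak within 226855 bp. GATA2, a factor of blood stem cells that also acts with the androgen receptor in prostate cells, had ATOH8 peaks with scores 116 (chr3:128489077-128490234) and 91, and its nearest TCF3 peak was 157214 bp away. GATA1, the erythroid member, had no peak of either factor.

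GATA4, GATA5 and GATA6, which act in heart and endoderm, each had TCF3 peaks. GATA6 had TCF3 peaks with scores 240 (chr18:22176635-22177406) and 99, both downstream of the start, and an ATOH8 peak with score 86 over the start (chr18:22169068-22170333). The TCF3 peak with score 240 was above 98.5% of the list and had its midpoint 7432 bp downstream of the start. The 3 TCF3 peaks at GATA4 scored 99 (chr8:11702296-11702993), 44 and 36 and lay 25709 to 28189 bp inside the gene. GATA5 had peaks with scores 75 (chr20:62476495-62476914) and 73 at its higher-coordinate end. They were the only peaks at the 42 genes in a 1 Mb stretch with 20 or more peaks of the list (30 TCF3 peaks there).

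The highest listed TCF3 scores among T-box genes were at TBX5 and TBX20. TBX5, which specifies heart and forelimb, had TCF3 peaks with scores 240, 240 and 89. The first lay across the annotated starts (chr12:114406421-114409946, 3525 bp wide) and the next inside the gene (chr12:114402960-114404090). TBX20, a heart factor, had TCF3 peaks with scores 190 (chr7:35257256-35259381), with its midpoint 4218 bp upstream of the start, and 61 over the start. TBX4, the hindlimb member, had peaks with scores 79 (chr17:61454225-61455416) and 52. No ATOH8 peak was listed at these 3 genes.

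TBX2 and TBX3 encode repressors with roles in the heart, limb and mammary gland. TBX2 had the most peaks of all 42 genes, with 4 TCF3 peaks of scores 141, 110, 107 and 89 and 2 ATOH8 peaks of scores 114 and 99. TBX3 had a single TCF3 peak with score 44 and no ATOH8 peak within 1335241 bp. At the higher-coordinate end of TBX2, the ATOH8 peak with score 114 (chr17:61409397-61409790) lay inside the TCF3 peak with score 141 (chr17:61407984-61409790) and ended at the same base. The next pair beyond the gene shared 115 bp, an ATOH8 peak with score 99 (chr17:61410984-61411885) and a TCF3 peak with score 110 (chr17:61411770-61413115).

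At TBXT, EOMES, TBR1, TBX21, TBX1 and TBX18 the TCF3 scores ran from 36 to 70. TBXT, the brachyury gene of the primitive streak, had a peak with score 70 (chr6:166166590-166168416), and EOMES, which acts in early mesendoderm and in T cells, had one with score 36. TBR1, a factor of cortical neurons, had TCF3 peaks with scores 58, 44 and 44 and an ATOH8 peak with score 75 that also fell under the rule for PSMD14. TBX21, the T helper cell factor T-bet, had a peak with score 50, and TBX1, of the pharyngeal arches, had peaks with scores 44 and 36. TBX18, an epicardial factor, had a peak with score 70 (chr6:84766337-84767586), with its midpoint 2363 bp upstream of the start.

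TBX6 and TBX10 had peaks that lay inside neighbouring genes. At TBX6, a factor of the presomitic mesoderm, a TCF3 peak with score 47 (chr16:30095260-30096753) lay within an ATOH8 peak of score 72 (chr16:30095130-30096863), and both midpoints were inside YPEL3. At TBX10 the ATOH8 peak with score 106 (chr11:67629441-67629911) was inside NUDT8, and the TCF3 peaks scored 38 and 36. Both TCF3 peaks also fell under the rule for ACY3, and the one with score 36 had its midpoint inside ACY3. Of the peaks at the 42 genes, 4 of 15 ATOH8 peaks also fell under the rule for another protein-coding gene, against 27.2% of all ATOH8 peaks at such genes, and 6 of 58 TCF3 peaks did, against 20.7%. MGA, which joins a T-box to a bHLH zipper domain, had ATOH8 peaks with scores 90 (chr15:41660634-41661200) and 87 at an internal start, and no TCF3 peak within 60476 bp.

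The genes with no peak of either factor were GATA1, SOX6, SOX8, SOX10, TBX15, TBX19 and TBX22. The nearest TCF3 peak was 16720 bp from SOX8 and 972122 bp from TBX22, with the others in between. The ATOH8 peak closest beyond the 5 kb limit lay 7272 bp from GATA1 with score 174, and the farthest one inside the limit lay 4072 bp from TBX6. For TCF3, a peak with score 36 lay 5026 bp beyond SOX15 and was left out, and one with score 70 lay 4848 bp beyond SOX14 and was kept. The lists were held in part, and absence from them was not read as absence of binding.

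TCF3 peaks at these genes were wide and ranked above the middle of the list. Their median width was 1121 bp, against 723 bp for all TCF3 peaks at protein-coding genes, and 19 of 58 (32.8%) were 1500 bp or wider, against 13.7%. Their median score was 77, against 61. The widths ranged from 363 bp at TBX3 to 3781 bp at SOX11. By family the median TCF3 score was 85.5 for SOX, 77 for GATA and 59.5 for T-box genes, so the T-box median was below that of all TCF3 peaks at genes. Wide TCF3 peaks of higher score were not particular to these families. At the homeobox and forkhead genes compared below, the median TCF3 widths were 861 and 909.5 bp and the median scores 74.5 and 66.5. In both of these lists 24.1% of TCF3 peaks were 1500 bp or wider. The 15 ATOH8 peaks at the SOX, GATA and T-box genes were 937 bp wide at the median, against 726 bp. Their median score was 87, against 85. Of these, 3 were 1500 bp or wider, against 8.35% of all ATOH8 peaks at genes. The highest listed ATOH8 score at these genes, 116, was above 73.3% of the ATOH8 list. In the TCF3 list, 4 peaks at these genes scored 240 or more, each above at least 98.5% of that list. Scores of the 2 lists are not comparable with each other. Widths and scores are from the peaks the families were chosen on, and are given as a description.

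**Figure D3:**
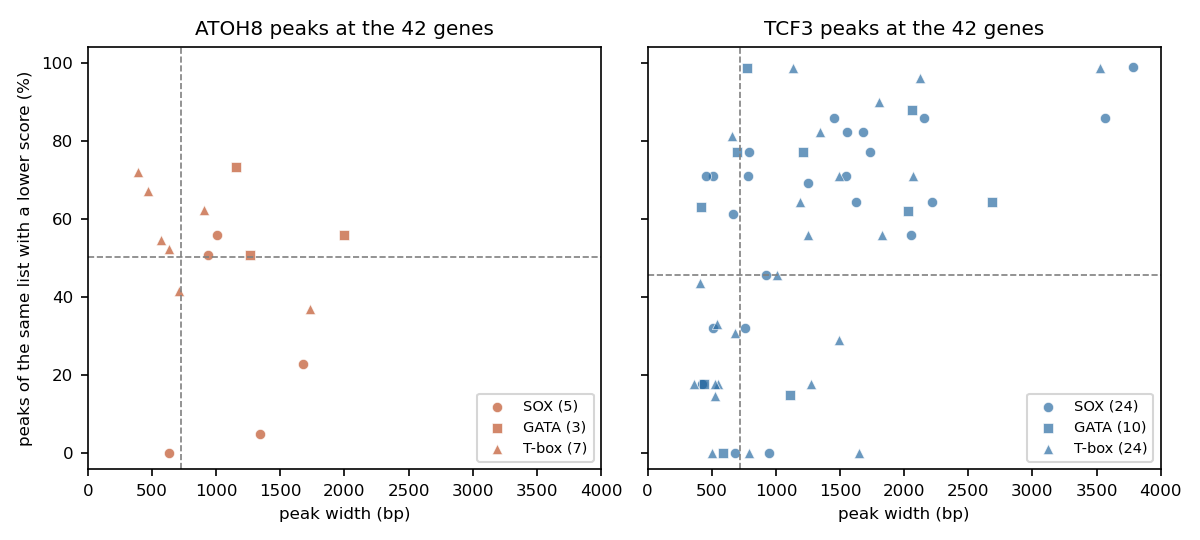
Width of each ATOH8 peak (left) and TCF3 peak (right) at the 42 genes (horizontal axis, bp) against the share of the same list with a lower score (vertical axis, %), with a symbol per family and the number of peaks in the key. Dashed lines mark the medians of all peaks of that list at protein-coding genes; TCF3 peaks at SOX11, SOX1 and TBX5 are the widest, at 3781, 3569 and 3525 bp.

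Positions were then read against annotated starts, for which strand and sequence were available in a RefSeq promoter table (GRCh38.p14, with hg38 coordinates on the primary chromosomes) for 28 of the 42 genes. These genes had 44 annotated starts in the table, 6 of them at GATA3. Of 36 TCF3 peaks at the 28 genes, 16 (44.4%) had a midpoint within 1 kb of a start, against 45.9% of all pairs of a TCF3 peak and a protein-coding gene. For ATOH8 the share was 5 of 11 (45.5%), against 67.2%. A TCF3 peak covered at least 1 base of the 250 bp before a start at 13 of the 44 starts (29.5%), against 11.2% of all starts of protein-coding genes, and an ATOH8 peak at 4 (9.09%), against 12.5%. The ATOH8 starts were those of GATA2, GATA6, SOX12 and MGA.

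**Figure D4:**
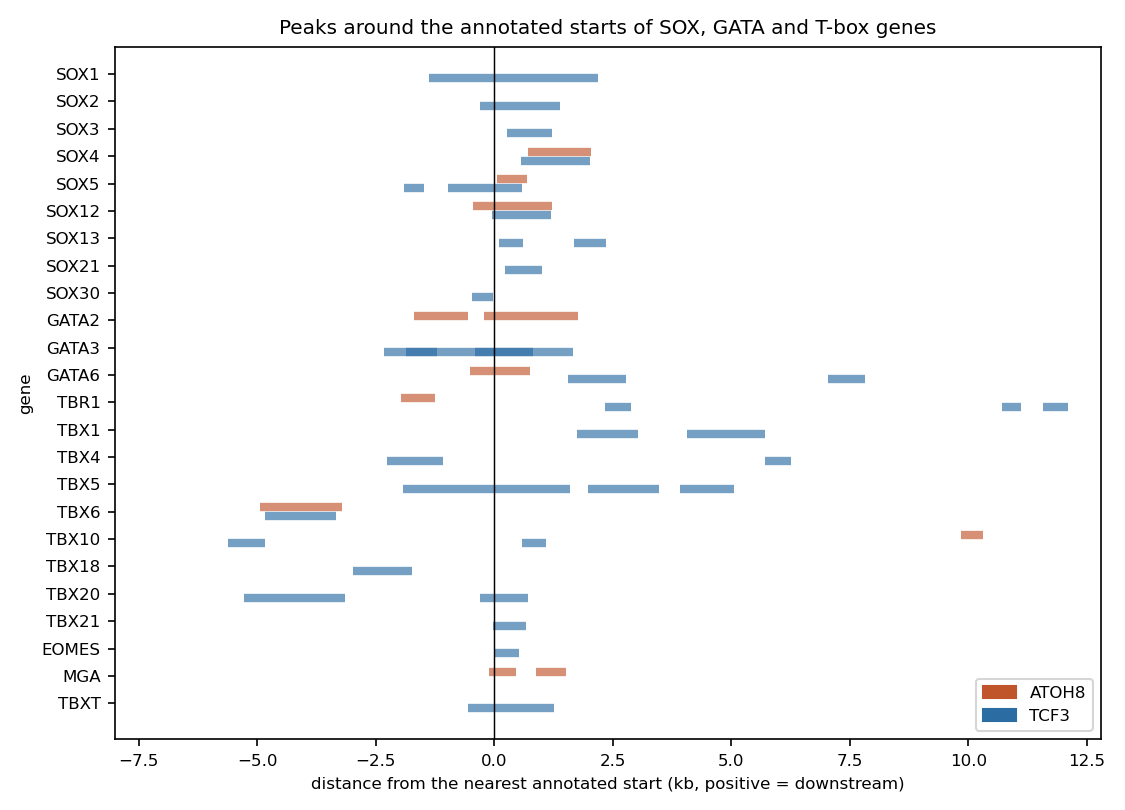
Span of each listed peak (bars, ATOH8 and TCF3) relative to the nearest annotated start of its gene (horizontal axis, kb) for genes with a start in the promoter table (vertical axis). TCF3 bars cross the start at SOX1, SOX2, SOX12, TBX5, TBX20 and TBXT among others; the 3 GATA3 bars overlap because each is drawn from its own nearest start, and a SOX5 peak 352773 bp inside the gene is beyond the axis.

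The 250 bases before a start are shown for the 8 genes whose covering peak ranked highest in its own list, since these are the stretches where a listed peak and a known start coincide. The covering peak was of ATOH8 at GATA2 and of TCF3 at the other genes, and at SOX12 peaks of both factors reached the stretch. The peaks covered the whole stretch except at GATA2, with 221 of 250 bases, and at SOX12, where the TCF3 peak covered 49. Each is written 5′ to 3′ on the strand of the gene, ending at the base before the start, and capitals mark every match to the E-box pattern CANNTG. Coordinates are GRCh38.
TBX5, chr12:114408013-114408262, minus strand: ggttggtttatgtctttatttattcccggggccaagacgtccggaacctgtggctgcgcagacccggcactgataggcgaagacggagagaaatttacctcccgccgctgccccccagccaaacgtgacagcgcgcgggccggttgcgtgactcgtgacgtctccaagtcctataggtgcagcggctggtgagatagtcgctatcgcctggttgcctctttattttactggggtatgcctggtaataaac
GATA3, chr10:8054438-8054687, plus strand: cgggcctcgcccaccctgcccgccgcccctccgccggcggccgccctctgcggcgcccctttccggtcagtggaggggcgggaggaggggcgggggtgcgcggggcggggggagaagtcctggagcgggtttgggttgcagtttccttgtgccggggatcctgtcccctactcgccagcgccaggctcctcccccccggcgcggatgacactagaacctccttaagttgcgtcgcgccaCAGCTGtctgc
SOX1, chr13:112066899-112067148, plus strand: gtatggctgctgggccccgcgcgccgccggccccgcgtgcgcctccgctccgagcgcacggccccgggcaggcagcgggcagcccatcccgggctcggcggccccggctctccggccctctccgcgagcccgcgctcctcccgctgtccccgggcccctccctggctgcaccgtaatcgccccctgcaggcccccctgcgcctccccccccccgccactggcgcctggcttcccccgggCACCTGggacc
SOX2, chr3:181711675-181711924, plus strand: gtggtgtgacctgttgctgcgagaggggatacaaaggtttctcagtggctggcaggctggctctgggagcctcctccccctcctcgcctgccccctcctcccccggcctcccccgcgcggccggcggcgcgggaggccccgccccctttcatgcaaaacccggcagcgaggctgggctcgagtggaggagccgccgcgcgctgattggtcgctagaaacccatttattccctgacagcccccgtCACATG
SOX5, chr12:24562492-24562741, minus strand: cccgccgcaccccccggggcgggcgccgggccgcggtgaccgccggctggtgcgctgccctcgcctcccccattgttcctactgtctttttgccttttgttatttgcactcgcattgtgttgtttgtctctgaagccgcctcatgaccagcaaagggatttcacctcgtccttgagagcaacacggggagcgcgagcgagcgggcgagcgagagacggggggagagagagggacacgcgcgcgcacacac
SOX12, chr20:325302-325551, plus strand: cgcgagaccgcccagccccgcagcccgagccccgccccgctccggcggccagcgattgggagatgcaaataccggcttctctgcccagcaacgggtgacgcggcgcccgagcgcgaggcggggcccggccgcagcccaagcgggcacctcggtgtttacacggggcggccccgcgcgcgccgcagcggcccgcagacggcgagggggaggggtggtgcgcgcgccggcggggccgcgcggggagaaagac
GATA2, chr3:128488531-128488780, minus strand: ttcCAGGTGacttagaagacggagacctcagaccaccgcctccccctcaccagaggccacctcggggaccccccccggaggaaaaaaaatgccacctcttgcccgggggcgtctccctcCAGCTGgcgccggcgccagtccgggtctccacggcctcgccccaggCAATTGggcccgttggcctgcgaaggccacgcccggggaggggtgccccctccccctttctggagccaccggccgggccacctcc
TBXT, chr6:166167852-166168101, minus strand: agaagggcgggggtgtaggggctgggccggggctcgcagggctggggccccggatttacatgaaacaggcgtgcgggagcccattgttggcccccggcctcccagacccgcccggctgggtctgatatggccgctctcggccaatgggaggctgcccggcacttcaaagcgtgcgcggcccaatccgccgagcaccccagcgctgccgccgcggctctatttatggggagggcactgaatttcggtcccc

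The shown stretches differed in E-box content. GATA2 held 3 matches to CANNTG, spelled CAGGTG, then CAGCTG, then CAATTG. The CAGGTG lay in the part of the stretch that the ATOH8 peak did not cover. The stretches of GATA3, SOX1 and SOX2 held 1 each, which was CAGCTG in GATA3, CACCTG in SOX1 and CACATG in SOX2, and those of TBX5, SOX5, SOX12 and TBXT held none. The TCF3 peak at TBX5 was 3525 bp wide, so most of it lies outside the 250 bases shown. It also covered the stretch before the other annotated start of TBX5 (chr12:114408443-114408692), which is not shown and held 1 match to CANNTG. GC content ran from 56.8% at TBX5 to 82.0% at SOX1.

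Over all 44 starts, the pattern CANNTG, which reads the same on both strands, was present in 25 of the 250-base stretches (56.8%), against 58.1% of the stretches of all protein-coding genes. It was present in 8 of the 16 stretches with a peak of either factor and in 17 of the 28 without. CAGCTG was present in 6 of 44 (13.6%, against 13.7% of all stretches), CACCTG or its reverse complement CAGGTG in 7 (15.9%, against 17.1%), CACGTG in 2 (4.55%, against 7.37%) and CATATG in 0 (against 1.78%). Words resembling the families' own sites were counted on both strands as well. The SOX-like word ACAAAG was present in 4 of 44 stretches (9.09%, against 11.6%), and the word AGATAA, which resembles sites of the zinc finger family, in 1 (2.27%, against 7.08%). The T-box-like word AGGTGT, which can overlap with the E-box form CAGGTG, was present in 3 (6.82%, against 9.08%). Median GC content was 66.8% in stretches with a peak and 59.8% in those without, against 62.0% in all stretches. Among the stretches of all protein-coding genes, those with a TCF3 peak had a median GC content of 72.4% and those with an ATOH8 peak 71.2%.

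Several TCF3 peaks at these genes lay inside non-coding RNA genes that run beside or across them. Of 58 TCF3 peaks, 11 (19.0%) had their midpoint in a long non-coding RNA gene, against 13.1% of all TCF3 peaks at protein-coding genes, and these were spread over 9 of the 42 genes. The SOX2 and SOX1 peaks lay in SOX2-OT and SOX1-OT, both SOX7 peaks in SOX7-AS1, and single peaks in SOX9-AS1, GATA3-AS1, TBX2-AS1 and TBX3-AS1. For ATOH8, 1 of 15 peaks did so (6.67%, against 11.4%), at GATA2 in GATA2-AS1. A peak in such an overlap could not be assigned to either gene alone.

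Some ATOH8 and TCF3 peaks at these genes shared bases, counted over all their peaks and not only at genes with both factors. Of the 15 ATOH8 peaks, 7 had 1 bp or more in common with a TCF3 peak (46.7%), against 30.7% of all ATOH8 peaks at protein-coding genes. Seen from TCF3, 7 of its 58 peaks were in such a pair (12.1%), against 18.3%. TCF3 peaks were denser and wider at these genes than at all protein-coding genes, as given above, and a link of this to sharing was not tested. The pairs were at SOX4, SOX5, SOX12, SOX17, TBX6 and TBX2, where there were 2. GATA6, SOX15, TBR1 and TBX10 had both factors in separate places, and none of the GATA genes had a shared pair. At SOX12 and TBX6 the TCF3 peak, and at SOX17 and the first TBX2 pair the ATOH8 peak, lay wholly inside the other. When at least 50% of each peak had to be covered, 3 of 58 TCF3 peaks were shared (5.17%), against 11.3% of all TCF3 peaks at protein-coding genes.

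**Figure D5:**
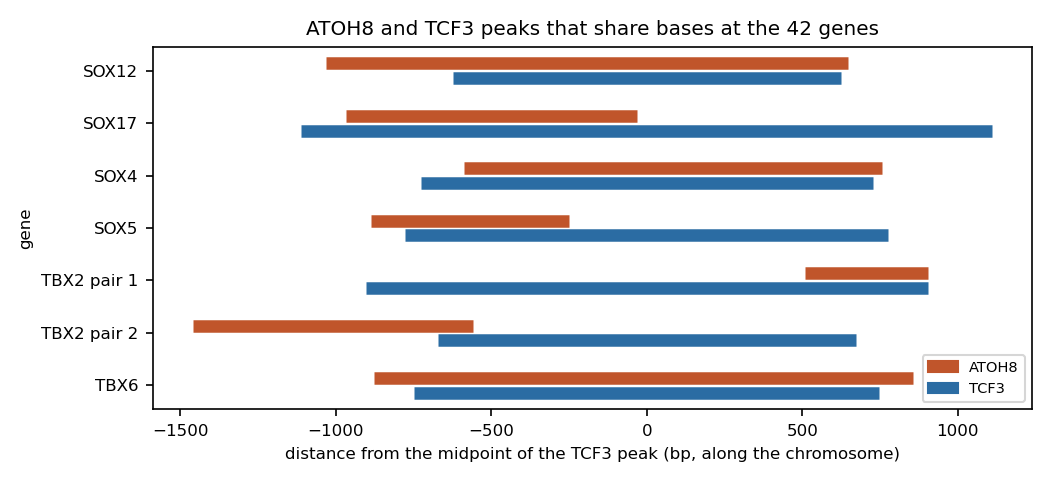
ATOH8 and TCF3 peaks that share bases at the 42 genes (vertical axis), drawn as spans relative to the midpoint of the TCF3 peak (horizontal axis, bp). The SOX4, SOX12 and TBX6 pairs cover most of each other, with 1313, 1248 and 1493 bp in common, while the second TBX2 pair shares 115 bp.

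Beyond the 5 kb limit, peaks were counted between 5 and 50 kb from a gene end. TCF3 peaks lay in that zone at 18 of the 42 genes (42.9%), against 35.8% of all protein-coding genes, with 5 beside SOX1, 4 beside SOX18 and 3 each beside SOX11, SOX15 and TBX1. SOX8 was the only gene of the 18 with no TCF3 peak nearer. ATOH8 peaks lay there at 9 genes (21.4%), against 28.5%, with 2 each beside GATA4 and TBX4.

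Other developmental regulators and the genes that work with these families were counted in the same way. Among homeobox genes, regulators of body plan, 90 of 120 had a TCF3 peak (75.0%) and 22 an ATOH8 peak (18.3%). Of 52 forkhead genes, 37 had a TCF3 peak (71.2%) and 13 an ATOH8 peak (25.0%). The TCF3 shares of the SOX, GATA and T-box families, 84.2, 66.7 and 76.5%, lie on both sides of these values, and no difference between families was tested.

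Of 15 genes whose products act with GATA or T-box factors, 8 had a TCF3 peak (53.3%, against 32.9% of all protein-coding genes) and 5 an ATOH8 peak (33.3%, against 25.1%). ISL1, a heart progenitor factor, had a TCF3 peak with score 240, NKX2-5, a partner of GATA4 and TBX5, had 2 up to 119, and ZFPM1, a GATA cofactor, had 1 TCF3 peak with score 120 and 4 ATOH8 peaks up to 149. Its relative ZFPM2 had none, and neither did HAND2, MEF2C, SMAD4 or TAL1. Of 15 genes that act with SOX factors, 9 had a TCF3 peak (60%) and 6 an ATOH8 peak (40%), and the median length of these genes was 74.5 kb. The lists overlap, as PAX3, PAX6, POU3F2, POU3F3 and POU5F1 here, and NKX2-5 above, were also counted among the homeobox genes. RUNX2, the bone factor, had 2 of each, with scores up to 280 for TCF3 and 137 for ATOH8. KLF4, a pluripotency and epithelial factor, had an ATOH8 peak with score 1021 and TCF3 peaks up to 99. POU5F1 and NANOG, which act with SOX2 in pluripotent cells, had no peak of either factor.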

How the data were processed

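The data are peak lists of ATOH8 (Flag tag) and TCF3 (Myc tag) ChIP-seq in DU145 cells, 1 list per immunoprecipitation, matched to its library by the factor's name. Coordinates are hg38, per the submitters' processing notes. The score of each peak is a deposited value of the authors, and the sources used here do not state its definition, the peak caller, the threshold or the use of the inputs. Each peak was called in 1 library, so no test was made. Lines without a peak (3 in the ATOH8 list, 5 in the TCF3 list) were skipped. Scores jump beside some of them, for example from 887 to 280 in the TCF3 list and from 996 to 356 in the ATOH8 list. Any peaks in these ranges were not analysed here.

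Genes and the sequences before annotated starts came from RefSeq tables of GRCh38.p14. Overlap meant at least 1 shared bp. The 42 genes and the gene lists were chosen with earlier results of these data known. Every member with a peak is named, positions are given for the highest peak of each member where its score exceeds the list median and for all shared peaks, and at most 8 stretches of sequence are shown. The scripts were tested on simulated data. Alternatives were other windows, score cuts, equal numbers of peaks, and removal of 1 Mb stretches with 20 or more peaks. Python 3.11.15 with numpy 2.4.6, pandas 2.3.3 and matplotlib 3.10.9 was used. No peak sequence beyond these stretches was used here.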

Additional observations from a re-analysis of the deposited data

How the results depend on the processing

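Among 30 recomputed counts over all 42 genes (genes with ATOH8, TCF3 or both, and shared TCF3 peaks), 24 stayed within 1.5 times the reported count and 6 moved further. With the higher-scoring 50% of each list, ATOH8 peaks lay at 7 genes (13.6% of all protein-coding genes at that setting), both factors at 3 (4.15%), and 3 of 35 TCF3 peaks were shared (8.57%, against 13.0% of all TCF3 peaks at genes). With equal numbers of peaks both factors were listed at 6 genes (6.39%). With 50% reciprocal overlap, or with midpoints within 200 bp, 3 of 58 TCF3 peaks were shared (5.17%, against 11.3 and 9.66%). The cause was not tested. The count for TCF3 ranged from 22 to 34 of 42 genes over the alternatives, and the background from 16.7 to 53.7%. With 50 kb on each side, ATOH8 peaks lay at 16 genes (38.1%), below the 43.6% of all genes. T-box genes with a TCF3 peak numbered 13 as reported (32.9% of all genes), 6 with the higher-scoring 50% (19.0%) and 5 with equal numbers of peaks (16.7%). ATOH8 counts by family moved from 5 to 2 T-box genes with 1 kb flanks (22.2% of all genes), from 5 to 3 T-box and 5 to 2 SOX genes with the higher-scoring 50% (13.6%), and from 2 to 4 GATA genes with 50 kb (43.6%). No paired analysis was possible because each group has 1 library. Leaving out a library was not possible for the same reason. Depth was unknown, so counts of peaks carry no interval for it.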
